A study of Mus musculus with 18 samples.

Results

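The secreted Wnt antagonists described here were 10 listed genes, Sfrp1, Sfrp2, Sfrp4, Sfrp5, Frzb, Wif1, Dkk1, Dkk2, Dkk3 and Sost, of 49184 genes quantified in mouse femoral cartilage. They were found by matching transcript identifiers to mouse gene symbols and summing the estimated read counts of each gene. All 10 were found, and all 10 passed the filter on low counts in every comparison. Cartilage was taken from the femoral condyles of male C57Bl/6J mice aged 12 weeks, in which a single load of 12 N had ruptured the anterior cruciate ligament (ACL) of the right knee. The injured group is the right knee and the contralateral group is the left, unloaded knee of injured mice, each with 3 libraries at day 1 and 3 at day 7 after rupture. The naïve group of 6 libraries came from uninjured mice and carries a day 7 label. All 18 libraries were pools of knees. The design schematic shows pools of 2 mice at day 1, of 4 mice at day 7, and of 2 knees from 6 naïve mice whose left and right knees were kept apart, while the series description puts 4 mice in each pool. Naïve libraries therefore shared mice. As the reason for pooling 4 mice at day 7, the schematic gives partial loss of cartilage. Which knees of a mouse went into which injured and contralateral pool is not stated, and the spread below is that between libraries. Each library held between 16074762 and 41794005 estimated counts.

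Wnt proteins signal by joining a Frizzled receptor to the co-receptors Lrp5 and Lrp6, which stabilises beta-catenin and turns on its target genes. Secreted antagonists act outside the cell at separate steps. The secreted frizzled-related proteins (Sfrp1, Sfrp2, Sfrp4, Sfrp5 and Frzb) and Wif1 bind the Wnt protein itself, whereas Dkk1, Dkk2 and sclerostin, the product of Sost, bind the co-receptors. Dkk3 belongs to the Dickkopf family by sequence but does not bind the co-receptors as Dkk1 does. In joints, Frzb and Dkk1 are known as brakes on Wnt signalling in articular cartilage, and sclerostin is best known as a product of osteocytes, the cells buried in bone.

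The genes lie on 8 chromosomes of the GRCm38 build and all are protein coding. Sfrp1 lies at chr8:23411502-23449632, Sfrp2 at chr3:83766321-83774316 and Sfrp4 at chr13:19623104-19632994, all on the plus strand. Sfrp5 lies at chr19:42197971-42202252 and Frzb at chr2:80411970-80447625, both on the minus strand. Wif1 lies on the plus strand at chr10:121033960-121100650. Dkk1 lies at chr19:30545863-30549665 on the minus strand, Dkk2 at chr3:132085292-132180304 on the plus strand and Dkk3 at chr7:112116017-112159057 on the minus strand. Sost lies on the minus strand at chr11:101962458-101967015. Among the annotated genes, Gm26771, an antisense gene with 16 counts over all libraries, overlaps Sfrp2 on the opposite strand, and none overlaps another member. Most members were read from a single transcript. The exceptions were Wif1, in which a retained-intron transcript (Wif1-202) took 17.3% of the estimated counts, Frzb, in which a processed transcript (Frzb-202) took 12.4%, and Sfrp4, in which 2 further coding transcripts took 8.83% and 6.13% beside 84.5% for the main one. The Wif1-202 share was 22.9% (range 16.9% to 30.5%) in day 7 injured libraries and 17.4% (range 13.4% to 23.4%) in naïve libraries, so these groups overlapped.

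Sfrp2 and Dkk2, which rose at day 7, and Sost, which fell, are the called members for which the RefSeq start matched the annotated gene start, and the 250 bases before that start are shown for each, 5′ to 3′ on the strand of the gene. The windows are chr3:83766071-83766320 (plus strand) for Sfrp2, chr3:132085042-132085291 (plus strand) for Dkk2 and chr11:101967016-101967265 (minus strand) for Sost, from RefSeq on GRCm38.p6. Capitals mark exact matches on either strand to 4 short motifs, namely CTTTGAT (the core bound by TCF/LEF factors, through which beta-catenin acts), TATAAA (the TATA box), CCAAT (the CCAAT box) and GGGCGG (the GC box).
Sfrp2: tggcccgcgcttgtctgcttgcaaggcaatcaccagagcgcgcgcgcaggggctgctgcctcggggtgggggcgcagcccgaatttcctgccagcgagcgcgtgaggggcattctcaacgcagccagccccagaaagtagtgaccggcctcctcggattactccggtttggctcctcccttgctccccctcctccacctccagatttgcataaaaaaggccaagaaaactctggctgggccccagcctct
Dkk2: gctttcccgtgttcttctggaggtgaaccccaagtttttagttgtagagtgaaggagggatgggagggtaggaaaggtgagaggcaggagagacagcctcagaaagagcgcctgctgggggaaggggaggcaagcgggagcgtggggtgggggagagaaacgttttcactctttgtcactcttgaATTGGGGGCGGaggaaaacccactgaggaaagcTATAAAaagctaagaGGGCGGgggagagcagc
Sost: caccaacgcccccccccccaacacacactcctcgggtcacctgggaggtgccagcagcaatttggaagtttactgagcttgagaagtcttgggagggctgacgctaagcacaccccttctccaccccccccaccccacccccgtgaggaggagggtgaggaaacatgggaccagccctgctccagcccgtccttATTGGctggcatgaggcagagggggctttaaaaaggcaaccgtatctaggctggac
The TCF/LEF core was in none of these 3 windows, and 3.21% of 32851 RefSeq promoter windows of the same length held it. Dkk2 had a TATA box starting at position -32 from the gene start, a CCAAT box read on the other strand at -65 that directly adjoins a GC box, and a second GC box. Sost had a single CCAAT box at -56, and Sfrp2 had no match. Over all promoter windows, 12.4% held a TATA box, 33.8% a CCAAT box and 32.7% a GC box. The GC content was 63.6% for Sfrp2, 55.6% for Dkk2 and 61.2% for Sost, against a median of 52.4%. A match is a run of letters and not a binding site.

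Before the comparisons, the levels of the members were set against each other in TPM (transcript abundance scaled by length and depth), which allows genes of unlike length to be compared. In naïve cartilage Wif1 had the highest level (17.2 ± 3.68 TPM, mean ± SD, n = 6), followed by Sfrp4 (11.2 ± 2.42), Sost (5.99 ± 1.14), Frzb (3.89 ± 1.18), Sfrp2 (3.82 ± 0.994), Dkk3 (2.78 ± 0.532), Dkk1 (1.82 ± 0.280), Sfrp5 (1.14 ± 0.394), Sfrp1 (0.817 ± 0.377) and Dkk2 (0.581 ± 0.178). Of the neighbours in this order, only Sfrp4 and Sost had ranges over the naïve libraries that did not overlap. At day 7 after rupture the order had changed. Dkk3 led (35.0 ± 11.8 TPM, n = 3), followed by Sfrp2 (26.4 ± 5.53), Sfrp4 (18.7 ± 4.20), Wif1 (11.1 ± 1.37), Frzb (5.71 ± 1.83), Sfrp1 (4.49 ± 1.13), Sost (2.48 ± 0.298), Dkk1 (1.20 ± 0.260), Dkk2 (0.994 ± 0.212) and Sfrp5 (0.650 ± 0.0705). Here the neighbours Dkk3 and Sfrp2, Sfrp2 and Sfrp4, Frzb and Sfrp1, and Dkk1 and Dkk2 overlapped.

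The 10 genes together reached 107 ± 25.8 TPM in day 7 injured libraries (79.7, 109 and 131) and 49.2 ± 7.44 TPM in naïve libraries. Day 1 injured libraries had 72.9 ± 22.4 TPM, with a highest library of 94.3 TPM that lay within the day 7 injured range. Make-up changed as well as the sum. Dkk3 took 32.3% ± 3.30 of the summed TPM in day 7 injured libraries and at most 6.24% in any of the 15 others. Sfrp2 took 24.9% ± 0.956, against at most 11.6% elsewhere. Wif1 went the other way, with 10.6% ± 1.41 in day 7 injured libraries against at least 30.7% in every other library, and Sost took 2.43% ± 0.682 against at least 9.50%. A share falls when another member rises, so these shares are not independent of each other.

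**Figure D1:**
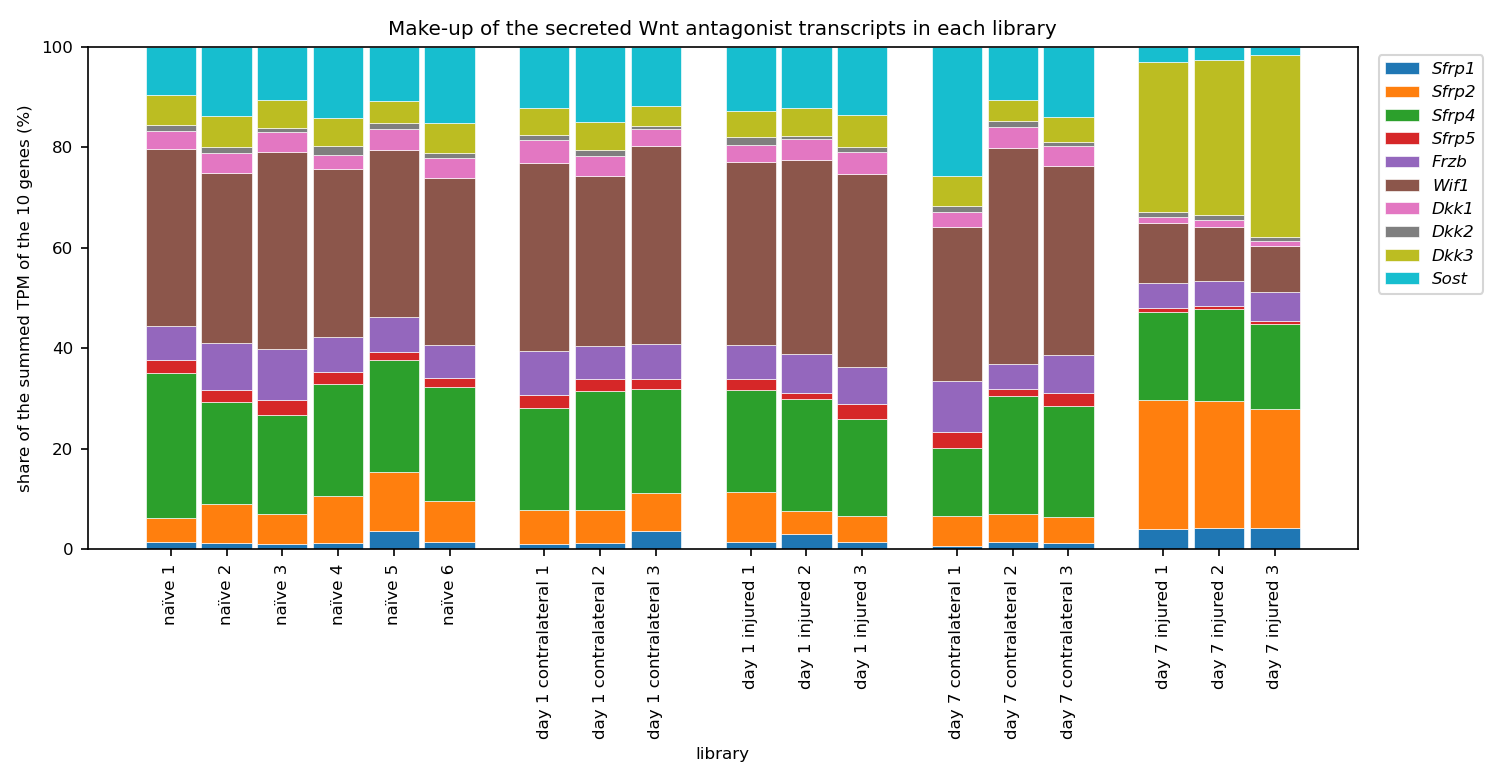
Share of the summed TPM of the 10 genes (y axis, percent) taken by each gene in each of the 18 libraries (x axis). Dkk3 and Sfrp2 fill between them the larger part of every day 7 injured bar, where Wif1 shrinks to about 10.6% on average, and the 15 other bars resemble each other apart from the wide Sost band of day 7 contralateral library 1.

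The label gives chondrocytes, and the libraries held more than these. A list of 11 articular and growth plate chondrocyte markers summed to between 3495 and 13257 CPM per library (counts scaled to the library total after TMM, the trimmed mean of M-values, has adjusted that total), of which Col2a1 made up 62.4%. Erythroid markers reached 15765 to 62807 CPM, and a list of 11 osteoblast and osteocyte markers reached 7654 to 55630 CPM, of which Col1a1 made up 96.4%. Markers of marrow myeloid cells (7554 to 15390 CPM) and skeletal muscle (1911 to 9901 CPM) were also present, and no list had a marker at or under 3 counts in every library. In such bulk samples, fewer cells of a type and less RNA per cell cannot be told apart. Of the libraries, day 7 contralateral library 1 stood apart, with 42.5% of its counts in its 10 most abundant genes against 16.6% to 29.8% in the 17 others. Its TMM factor, 0.696, was the lowest of the 18. The 3 day 7 injured libraries came next, with factors of 0.838, 0.83 and 0.852 against 0.962 to 1.16 in the 14 remaining libraries. They had 26.4% to 29.8% of their counts in the 10 most abundant genes, against no more than 25.9% in those 14. A low factor raises the TMM-normalised CPM of a library and leaves its TPM as it is, and for all 10 members the day 7 injured level stood higher against naïve in CPM than in TPM.

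At day 7, the injured knee was compared with naïve cartilage to ask what joint injury did to gene expression. Levels of single genes are given as the same TMM-normalised CPM. Deposited TPM carry no TMM adjustment, and the text gives them where the day 7 injured and naïve groups overlap on one scale and not on the other. Of the 10 antagonists, 6 rose (Dkk3, Sfrp2, Sfrp1, Dkk2, Sfrp4 and Frzb) and 1 fell (Sost), while Wif1, Dkk1 and Sfrp5 did not pass the test. Genes with a false discovery rate (FDR) no higher than 0.05 in the quasi-likelihood test of edgeR and a change no smaller than 1.5-fold were called. Across all 21129 genes tested, 10.4% were called higher and 6.11% were called lower. Over the 10 members the median log2 fold change was 0.86, and over all genes it was -0.04. The members were not drawn at random and these counts carry no test.

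**Figure D2:**
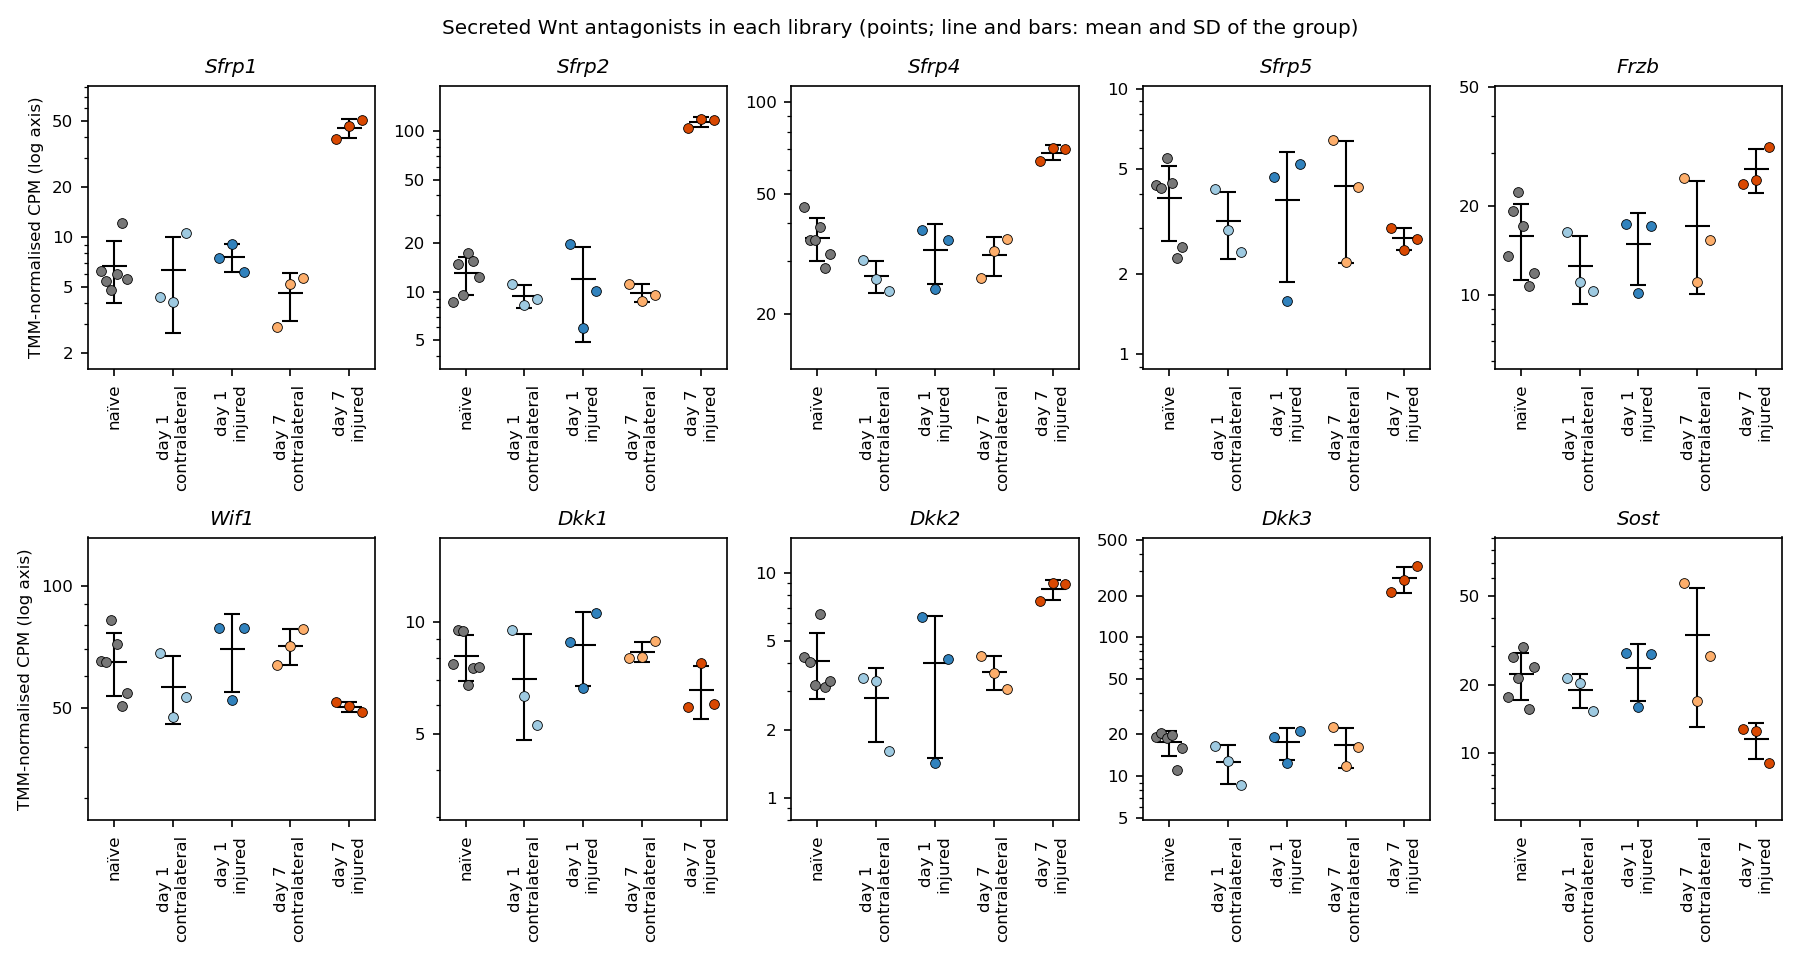
TMM-normalised CPM (y axis, log scale, a scale of its own for each gene) of the 10 genes in the 5 groups (x axis); each point is a library, and the line and bars give the group mean and SD. The 3 day 7 injured libraries lie above all 15 others for Sfrp1, Sfrp2, Sfrp4, Dkk2 and Dkk3 and below them for Sost.

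Of the antagonists that bind Wnt itself, Sfrp2 rose the most. Sfrp2, which also carries a netrin-like domain and is made by connective tissue fibroblasts, had 105, 120 and 117 CPM in the 3 day 7 injured libraries and 8.64 to 17.5 CPM (median 13.6) in the naïve libraries. The lowest injured library was thus far above the highest naïve one. Sfrp2 thus had a log2 fold change of 3.14 (SE 0.270, 8.82-fold, FDR = 6.39e-07). Sfrp1 followed with 38.9, 46.3 and 50.8 CPM in injured libraries and 4.80 to 12.2 CPM (median 5.76) in naïve libraries. These groups did not overlap either, although naïve library 5, at 12.2 CPM, stood away from the other naïve libraries, which reached at most 6.27 CPM. The log2 fold change of Sfrp1 was 2.77 (SE 0.296, 6.83-fold, FDR = 5.07e-06).

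Sfrp4 was already abundant before injury and its rise was smaller. It had 63.8, 70.7 and 70.3 CPM in injured libraries and 28.5 to 45.2 CPM (median 35.1) in naïve libraries, with no overlap in CPM. In TPM injured library 1 (14 TPM) lay within the naïve range of 8.65 to 15.3. The log2 fold change was 0.95 (SE 0.139, 1.94-fold, FDR = 1.08e-04). Frzb, first found in cartilage extracts, had 23.6, 24.4 and 31.6 CPM against 10.7 to 22.3 CPM (median 15.3). Every injured library was above every naïve one, but the gap to naïve library 3, at 22.3 CPM, was small, and in TPM the groups overlapped (4.00, 5.48 and 7.64 against 2.84 to 6.05, with a log2 ratio of the means of 0.55, under 1.5-fold). For Frzb the log2 fold change was 0.77 (SE 0.227, 1.70-fold, FDR = 0.0192), and without injured library 3 it was 0.63 and no longer passed (FDR = 0.110).

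The remaining Wnt-binding members did not pass. Wif1, the most abundant member of naïve cartilage, had 51.5, 50.4 and 48.7 CPM in injured libraries and 50.6 to 82.3 CPM (median 65.0) in naïve libraries. All 3 injured libraries were near or under the lowest naïve library. The log2 fold change was -0.35 (95% confidence interval -0.69 to -0.01, FDR = 0.111), which is under the 1.5-fold limit. On the TPM scale the log2 ratio of the group means was -0.63, and the groups, at 9.54 to 12.0 and 14.1 to 23.4 TPM, did not overlap. Sfrp5, at 3.0, 2.47 and 2.73 CPM against 2.31 to 5.46 CPM (median 4.29), overlapped between the groups. For Sfrp5 the log2 fold change was -0.48 (95% confidence interval -1.22 to 0.26, FDR = 0.314), and with 39 to 158 counts per library it was the member with the fewest counts.

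Among the Dickkopf genes, Dkk3 rose the most of all 10 members. It had 213, 257 and 328 CPM in injured libraries and 11.1 to 20.6 CPM (median 19.1) in naïve libraries. The groups stood an order of magnitude apart. The log2 fold change was 3.94 (SE 0.214, 15.3-fold, FDR = 6.11e-09). Dkk2, which binds Lrp5 and Lrp6 and can inhibit or activate signalling depending on the cell, was low, with 7.49, 9.0 and 8.93 CPM against 3.10 to 6.58 CPM (median 3.68). In CPM the groups did not overlap, and naïve library 4 was the closest. In TPM injured library 1 (0.754) was below naïve library 4 (0.921). For Dkk2 the log2 fold change was 1.07 (SE 0.347, 2.10-fold, FDR = 0.0305). This call was lost on leaving out naïve library 3, 5 or 6 or any injured library, with FDRs from 0.0512 to 0.0936 and log2 fold changes from 1.00 to 1.16. Dkk1, the best studied inhibitor of the co-receptors, did not pass, with 5.90, 7.79 and 6.01 CPM against 6.79 to 9.54 CPM (median 7.65). In CPM 1 injured library lay within the naïve range and the others under it. In TPM the injured libraries, at 0.931, 1.45 and 1.23, were all under the lowest naïve one, at 1.49. Its log2 fold change was -0.29 (95% confidence interval -0.70 to 0.13, FDR = 0.282), and the log2 ratio of mean TPM was -0.60.

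Sost was the only member that fell. It had 12.9, 12.6 and 9.07 CPM in day 7 injured libraries and 15.6 to 29.5 CPM (median 22.8) in naïve libraries. The highest injured library was below the lowest naïve one. The log2 fold change was -0.95 (SE 0.224, 1.94-fold lower, FDR = 0.00488). Other osteocyte genes did not move as a block in the same libraries. Mepe, a matrix protein of osteocytes, fell (log2 fold change -0.61, SE 0.136, FDR = 0.00342). Dmp1, which is needed for mineralisation, had a log2 fold change of -0.32 (SE 0.201, FDR = 0.252), and Phex, a peptidase that limits Fgf23, one of 0.08 (SE 0.238, FDR = 0.825). Of the 11 osteoblast and osteocyte markers, 2 rose (Col1a1, log2 fold change 2.05, and Ibsp, 0.69) and 1 fell (Mepe). The share of these values in the fall of Sost was not tested.

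Against the contralateral knees of the same day, 5 members rose (Dkk3, Sfrp2, Sfrp1, Dkk2 and Sfrp4) and Sost fell. Of 21262 genes tested, 9.33% were called higher and 3.23% lower. This comparison shares its injured libraries with that against naïve cartilage, so the values are given side by side and are no second test. The log2 fold changes were 3.99 for Dkk3 (SE 0.305, FDR = 1.19e-07), 3.54 for Sfrp2 (SE 0.342, FDR = 1.42e-06) and 3.28 for Sfrp1 (SE 0.389, FDR = 1.24e-05). Sfrp4 had 26.3, 32.4 and 35.5 CPM in contralateral libraries, all below its injured values, and rose by 1.12 (SE 0.175, FDR = 1.86e-04). Dkk2, at 4.29, 3.61 and 3.04 CPM in contralateral libraries, did not overlap its injured values. Its log2 fold change was 1.23 (SE 0.407, FDR = 0.0434), and the call was lost without any one of the 6 libraries compared (FDRs from 0.0538 to 0.127).

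In CPM, Sost, Frzb, Sfrp5, Dkk3, Sfrp2 and Dkk2 were each highest in contralateral library 1 among the 3 contralateral libraries. In TPM each of them was lowest there. The log2 fold changes of members shifted with this library. The study left out an ACL library of low mapping rate without naming it. Its principal component plot shows fewer day 7 contralateral points than there are such libraries. Whether library 1 was the removed library is not stated. Sost had 56.7, 17.1 and 27.1 CPM in contralateral libraries 1, 2 and 3. All 3 were above the injured libraries, and library 1 was the highest of all 18 in CPM. In TPM, by contrast, Sost had 5.81, 5.85 and 7.63 in these libraries, so library 1 was the lowest of them and within the naïve range of 4.51 to 7.71. The log2 fold change of Sost was -1.54 (SE 0.349, FDR = 0.00458) and -0.92 (FDR = 0.0336) without library 1. With only the 6 libraries compared in the model it was -1.54 and did not pass (FDR = 0.0536). Frzb had 24.9, 11.1 and 15.4 CPM in contralateral libraries, and library 1 overlapped the injured range. Its log2 fold change was 0.64 (95% confidence interval 0.00 to 1.29, FDR = 0.161), and without library 1 it was 1.02 and passed (FDR = 0.0305). In library 1, Col1a1 stood at 52440 CPM, against 15476 and 21550 CPM in the other contralateral libraries, while the other 10 osteoblast and osteocyte markers summed to 645 CPM, against 941 and 1098 CPM. Mepe (8.34 against 21.2 and 32.8 CPM) and Dmp1 (54.3 against 93.6 and 124 CPM) were lowest there. So were Bglap, Bglap2, Ibsp, Alpl, Phex and Pdpn. Sp7 (36.6 against 28.6 and 31.6 CPM) and Fgf23 (0.623 against 0.312 and 0.439 CPM) were highest there. Chondrocyte markers summed to 13257 CPM against 4324 and 5043 CPM, and to 2810 against 1585 and 1915 CPM without Col2a1. Erythroid markers summed to 62807 CPM in library 1 against 27810 and 29716 CPM. The part of these marker levels in the member values of library 1 was not tested. Wif1 had 63.6, 71.0 and 78.2 CPM in contralateral libraries, all above the injured ones, yet its log2 fold change of -0.50 (95% confidence interval -0.88 to -0.12, FDR = 0.0655) did not pass. Dkk1 (-0.35, 95% confidence interval -0.80 to 0.10) and Sfrp5 (-0.62, 95% confidence interval -1.53 to 0.28) did not pass either. Without library 1 the log2 fold changes were 4.27 for Dkk3, 3.65 for Sfrp2, 3.08 for Sfrp1, 1.37 for Dkk2, 1.03 for Sfrp4, -0.55 for Wif1, -0.35 for Dkk1 and -0.23 for Sfrp5. Of these, only the call of Dkk2 changed (FDR = 0.0538).

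**Figure D3:**
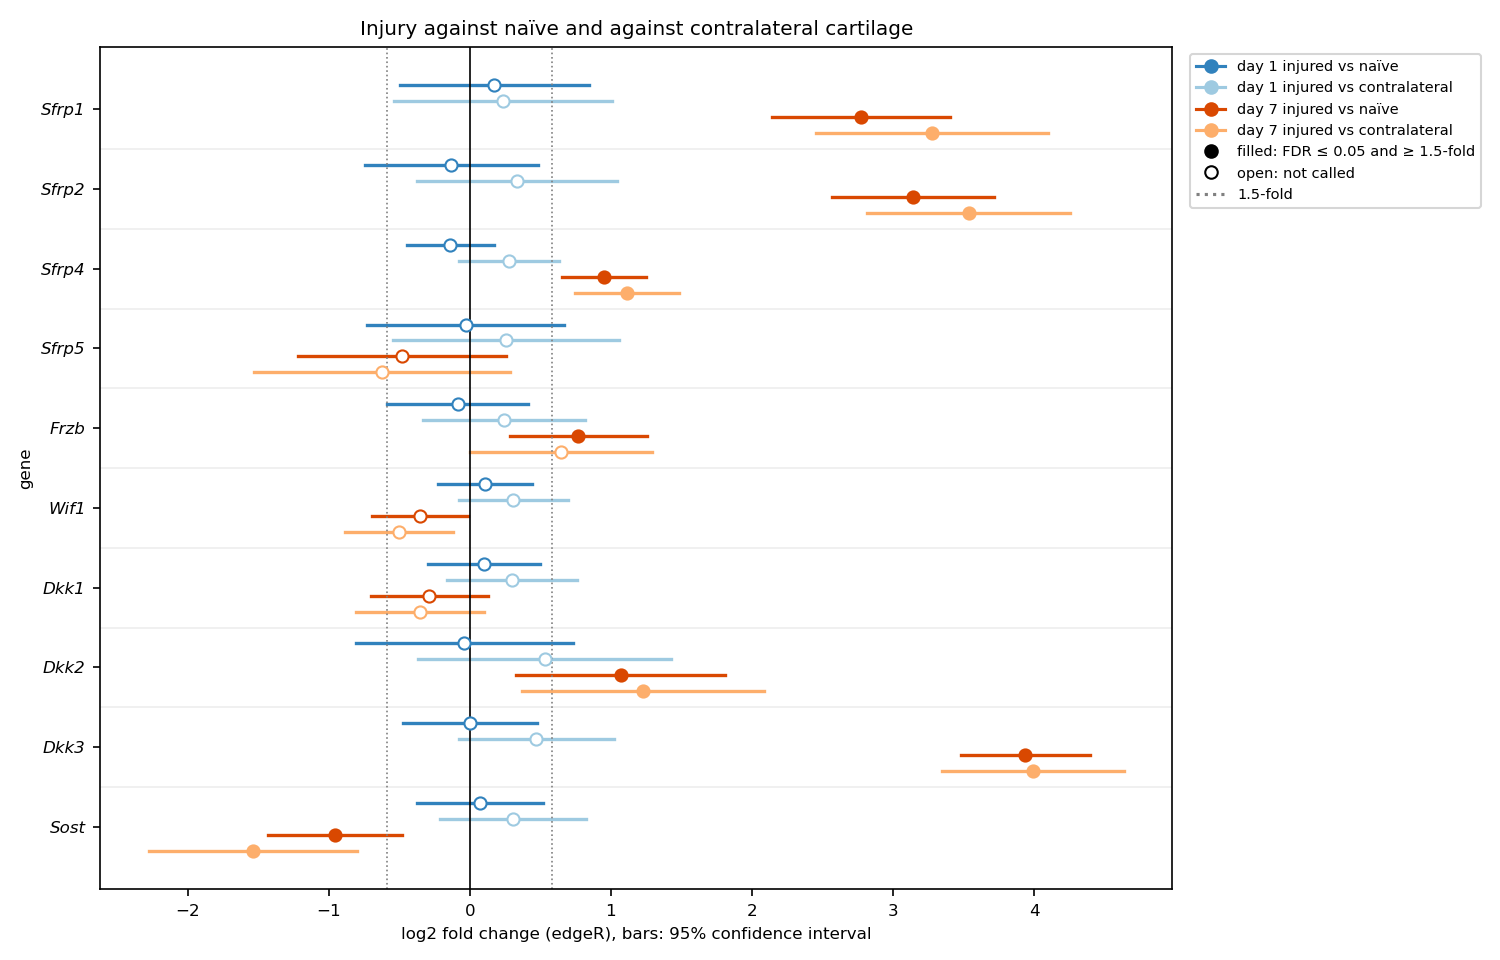
Log2 fold change (x axis) of each gene (y axis) for injured against naïve and against contralateral libraries at day 1 and day 7. Bars give the 95% confidence interval derived from the edgeR test, filled points mark called genes and dotted lines lie at 1.5-fold. All day 1 points are open and sit between -0.14 and 0.53, and the day 7 points of Dkk3, Sfrp2 and Sfrp1 lie beyond 2.7.

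At day 1 no member was called in edgeR, against naïve cartilage or against the contralateral knee, and 0% of the 21129 genes were called in either comparison. Against naïve cartilage, 0 members and 959 genes had an unadjusted p under 0.05, and DESeq2 called 0 members and 15 genes, all lower, while limma-voom called 0. Against contralateral libraries, 0 members and 1383 genes had an unadjusted p under 0.05, and neither DESeq2 nor limma-voom called any gene. Dkk3, the member with the largest change at day 7, had 19.1, 12.5 and 21.3 CPM in day 1 injured libraries, within or near the naïve range. Its log2 fold change against naïve was 0.00 (95% confidence interval -0.48 to 0.47). On the TPM scale the day 1 injured means of all 10 members lay above the naïve ones, by log2 ratios from 0.34 (Sfrp2) to 0.69 (Sfrp1), with 0.59 for Dkk3, so the day 1 direction depends on the scale. No value over all genes is given here on the TPM scale, so nothing particular to the members is read from these ratios. For Sfrp2 (19.8, 5.94 and 10.1 CPM) the values spread on both sides of the naïve range, and the log2 fold change was -0.13 (95% confidence interval -0.74 to 0.49). Intervals of this width do not show that levels were equal. Against the day 1 contralateral knees all 10 members had log2 fold changes above 0, from 0.24 (Sfrp1) to 0.53 (Dkk2), with a median of 0.30. Over all genes the median was 0.00, with 10506 of 21129 above 0. Several marker lists lay on the same side, with 11 of 11 chondrocyte (median 0.28), 5 of 5 hypertrophic chondrocyte (0.46), 5 of 5 tendon and ligament (0.71) and 11 of 12 fibroblast markers (0.34) above 0, and 17 of 18 Wnt receptors (0.26). Others lay on the other side, with 0 of 6 erythroid (-0.40), 0 of 7 marrow myeloid (-0.23) and 1 of 6 macrophage markers (-0.09) above 0. The part of all these lists in the member values was not tested.

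Contralateral knees themselves were compared with naïve cartilage to see whether the other leg had changed. At day 7, 0% of 21262 genes were called by edgeR. In edgeR 0 members and 3220 genes had an unadjusted p under 0.05. DESeq2 called 8 genes, none of them a member, and limma-voom called 0. Sost had the largest difference, with a log2 fold change of 0.56 (95% confidence interval -0.04 to 1.17). Without contralateral library 1 it was -0.03, without library 2 it was 0.90 and without library 3 it was 0.72, and none of these passed. At day 1, 0% of 21129 genes were called, and limma-voom called 0 and DESeq2 2 genes, none a member. All 10 members had log2 fold changes below 0, with a median of -0.31 against 0.00 over all genes. So had all 11 chondrocyte (median -0.36), 5 hypertrophic chondrocyte (-0.42), 5 tendon and ligament (-0.63), 6 osteoclast (-0.25) and 5 adipocyte markers (-0.36). Erythroid (5 of 6 above 0, median 0.04) and B cell markers (4 of 6, 0.01) mostly did not. The part of all these lists in the member values was not tested. An unadjusted p under 0.05 in edgeR was found for 554 of the 21129 genes and, among the members, for Sfrp4 only. Sfrp4 had 30.2, 26.2 and 23.8 CPM (log2 fold change -0.42, 95% confidence interval -0.73 to -0.10), and its adjusted value did not pass. The day 1 contralateral libraries serve in both day 1 statements, so the direction above 0 against these knees and the direction below 0 against naïve are not separate observations.

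Injured knees changed between the 2 days. From day 1 to day 7, Dkk3 (log2 fold change 3.94, FDR = 2.85e-07), Sfrp2 (3.27, FDR = 1.32e-05), Sfrp1 (2.60, FDR = 1.62e-04), Sfrp4 (1.09, FDR = 3.04e-04) and Frzb (0.86, FDR = 0.0314) rose and Sost fell (-1.03, FDR = 0.00799). Across all genes 9.04% were called higher and 6.38% lower. The Frzb call was lost with all 18 libraries in the model (FDR = 0.0637) and without day 1 injured library 2 (0.63, FDR = 0.123) or day 7 injured library 2 (0.91, FDR = 0.0540) or 3 (0.71, FDR = 0.114). Dkk2 had 6.37, 1.43 and 4.14 CPM at day 1, a spread that reached close to the day 7 values. Its log2 fold change of 1.11 missed the threshold (FDR = 0.0628), and it passed with DESeq2 (FDR = 0.0354), with limma-voom (FDR = 0.0276) and without day 1 injured library 1 (1.62, FDR = 0.0198), while without day 1 injured library 2 it was 0.69 (FDR = 0.168). Wif1 had a log2 fold change of -0.46 that did not pass (FDR = 0.0804), but was called without day 1 injured library 2 (-0.64, FDR = 0.0197).

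Whether the injury effect itself differed between the days was tested as the injured minus contralateral difference at day 7 less that at day 1. It was larger at day 7 for Dkk3 (3.52, SE 0.40, FDR = 5.97e-05), Sfrp2 (3.19, SE 0.456, FDR = 5.15e-04) and Sfrp1 (3.03, SE 0.521, FDR = 0.00232). For Sost the effect was lower at day 7 (-1.85, SE 0.483, FDR = 0.0386). Over all 21262 genes, 3.53% were called higher and 0.245% lower. The Sost call rested on many libraries, since leaving out any 1 of 8 of the 12 libraries compared ended it, with FDRs from 0.0572 to 0.127, and without day 7 contralateral library 1 the value was -1.23 (FDR = 0.0775). Sfrp4 (0.83, SE 0.245, FDR = 0.0684) and Wif1 (-0.81, SE 0.255, FDR = 0.0922) missed the threshold, and both passed with DESeq2 (FDR = 0.0325 and 0.0396). For Dkk2 (0.70, 95% confidence interval -0.51 to 1.90), Frzb (0.40, -0.51 to 1.31), Dkk1 (-0.65, -1.29 to -0.02) and Sfrp5 (-0.88, -2.14 to 0.37) no difference between the days was called.

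The libraries were also compared without a model, by whether the day 7 injured libraries stood apart from the others. In 5 members (Sfrp1, Sfrp2, Sfrp4, Dkk2 and Dkk3) all 3 day 7 injured libraries were above the 15 others, as in 11.9% of the 21262 genes, and in Sost all 3 were below, as in 3.22%. In TPM this held for Sfrp1, Sfrp2, Dkk3 and Sost, while Sfrp4 and Dkk2 overlapped the others, which reached 18.4 and 1.16 TPM. Of all 21262 genes, 1.43% were above the 15 others in TPM and 1.94% below. In CPM the overlap of Frzb came from day 7 contralateral library 1 alone, at 24.9 CPM. Wif1 overlapped through naïve library 5 and day 1 contralateral library 2, at 50.6 and 47.4 CPM.

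Libraries also varied within the groups, and several members varied together. Naïve library 5 was below the naïve mean (in log2 CPM) for 8 of 10 members, naïve library 6 for 9, day 1 contralateral library 2 for all 10 and library 3 for 9, day 1 injured library 2 for 9, and day 7 contralateral library 2 for 8. In naïve library 5, day 1 contralateral library 3 and day 1 injured library 2, Sfrp1 was above that mean, by 0.88, 0.69 and 0.48. The synovial and connective tissue fibroblast list was the highest of its group in these 3, at 1841, 2045 and 2172 CPM, chiefly through the lubricin gene Prg4 (1409, 1649 and 1775 CPM). Has1, a hyaluronan synthase, was also high in them (21.1, 27.6 and 32.2 CPM, against at most 8.12 CPM in the other libraries of these groups). Clec3b and Htra4 were lowest of their groups there. Without Prg4 the list stood at 432, 396 and 396 CPM, the lowest of its group in both day 1 libraries and next to the lowest in naïve library 5. The adipocyte list was the lowest of its group in all 3, at 214, 229 and 174 CPM. Naïve library 5 was also above the mean for Sfrp2, by 0.28. What these lists have to do with the member levels was not tested. Over the 10 members the median deviation was -0.32, -0.53 and -0.49 in these libraries. In day 7 injured libraries, the deviations of Dkk3 were 3.59, 3.86 and 4.21, larger than any seen among the 15 others, where they ran from -0.96 to 0.38.

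**Figure D4:**
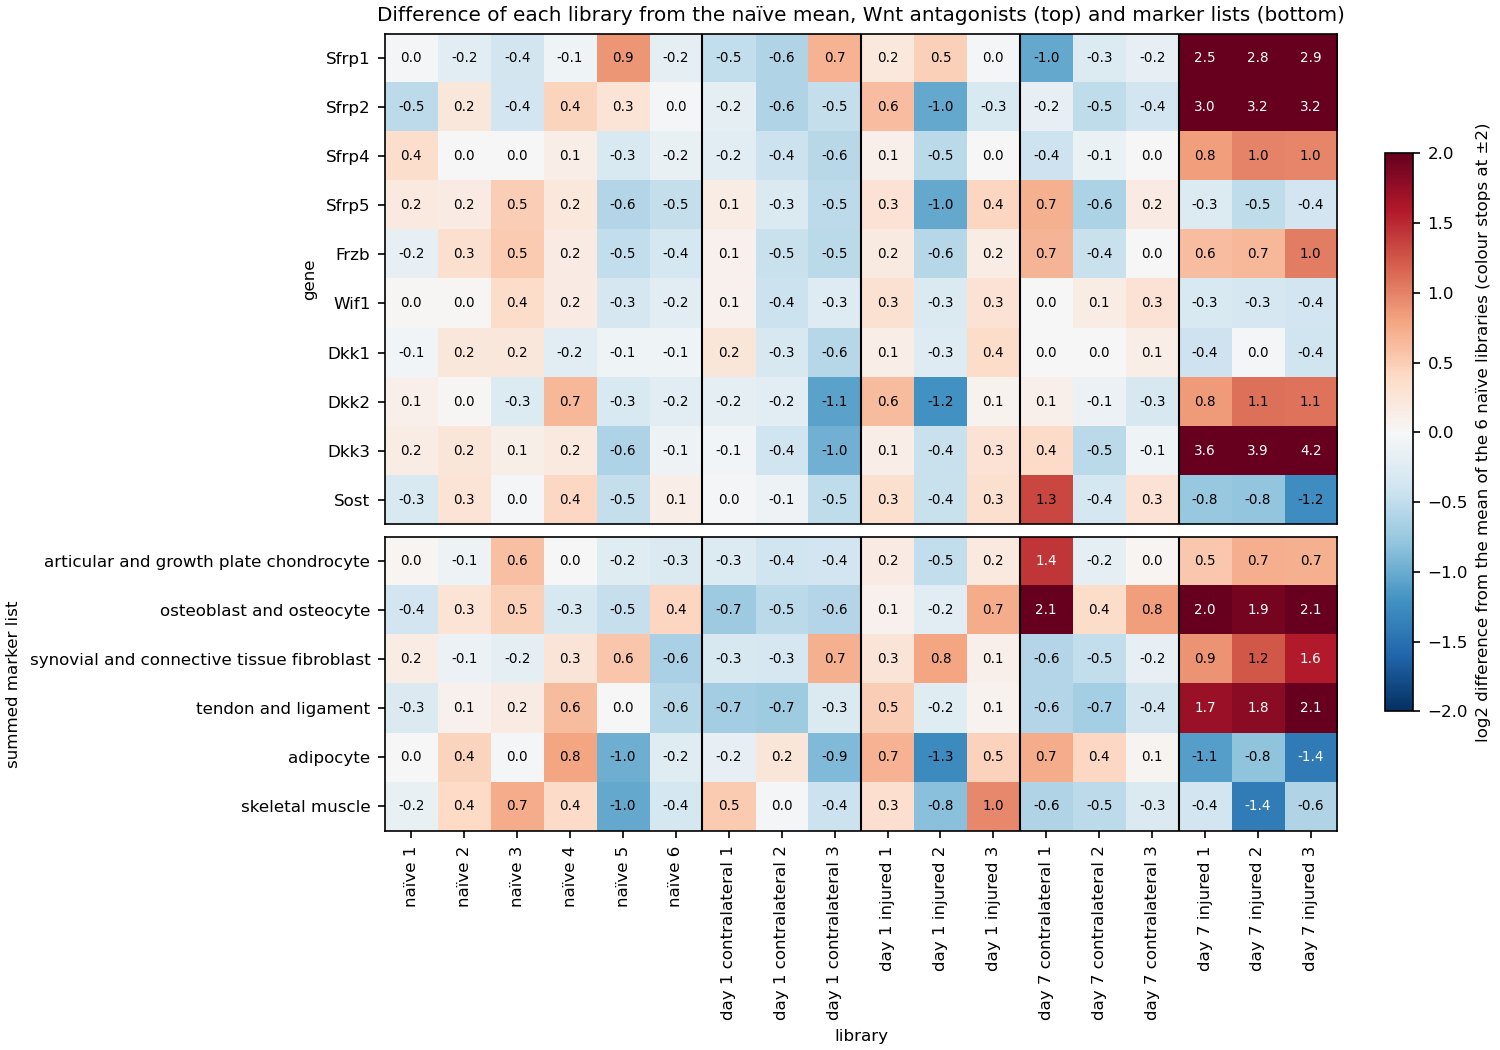
Log2 difference of each library (x axis) from the mean of the naïve libraries for the 10 genes (top) and for the summed CPM of 6 marker lists (bottom), in colour (scale stops at ±2) and as numbers. Day 7 injured columns are high for Dkk3, Sfrp2 and Sfrp1 together with the tendon and ligament list, and day 7 contralateral library 1 is high for Sost. The osteoblast and osteocyte sum, high in these 4 libraries, is 96.4% Col1a1.

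Markers of connective tissue moved with the injured libraries at day 7. Of 12 synovial and connective tissue fibroblast markers, 7 rose and none fell against naïve cartilage. The list summed to 2343, 2964 and 3774 CPM in injured libraries and 801 to 1841 CPM in naïve libraries, without overlap. Col14a1 (log2 fold change 2.99), Dpt (2.35) and Thy1 (1.91) rose, while Prg4, the most abundant, did not pass (0.65, FDR = 0.266), nor did Pi16 (0.11) and Dpp4 (-0.08). All 5 tendon and ligament markers rose, led by Tnmd (3.68) and Scx (2.94), and their sum was 1676, 1765 and 2220 CPM against 341 to 787 CPM. The most abundant was Fmod, at 57.3% of the list. The part of these markers in the rise of Sfrp1, Sfrp2 and Dkk3 was not tested.

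Chondrocyte markers rose in part, with 4 of 11 higher and none lower. Acan (1.57), Comp (1.39), Sox9 (1.36) and Col11a1 (1.26) rose and Col2a1 did not pass (0.25, FDR = 0.358). The list summed to 7165, 8179 and 8062 CPM in injured libraries and 4019 to 7488 CPM (median 4731) in naïve ones, so dividing by it lowers the injured means of genes against the naïve ones. Over all 21262 genes, the day 7 injured libraries were all above the naïve ones on this scale in 3.01% and all below in 31.1%. Per 1000 CPM of this list, Dkk3 stood at 34 ± 5.89 CPM in day 7 injured libraries and 3.59 ± 0.809 in naïve ones, and Sfrp2 at 14.6 ± 0.0472 and 2.77 ± 1.02. Sfrp1 stood at 5.80 ± 0.452 and 1.43 ± 0.778, and these 3 members did not overlap between the groups. The other 3 members that rose did overlap on this scale, with 8.76 ± 0.133 and 7.33 ± 1.46 for Sfrp4, 3.40 ± 0.477 and 3.14 ± 0.601 for Frzb, and 1.08 ± 0.0336 and 0.844 ± 0.296 for Dkk2. Wif1 had 6.47 ± 0.632 in day 7 injured and 13.1 ± 1.36 in naïve libraries on this scale, without overlap, and its only library below 6.47 outside the injured group was day 7 contralateral library 1, at 4.80. Sost (1.49 ± 0.338 against 4.68 ± 1.45), Dkk1 (0.841 ± 0.105 against 1.66 ± 0.317) and Sfrp5 (0.353 ± 0.0594 against 0.767 ± 0.153) were also below naïve libraries without overlap, as were the 31.1% of all genes, and nothing about these 4 members is read from it.

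The other marker lists were read for completeness. Of 6 endothelial markers 4 rose (Cdh5, Emcn, Pecam1 and Tie1), of 5 hypertrophic chondrocyte markers 2 (Mmp13 and Panx3), and of 6 osteoclast markers 1 (Ctsk). None of 6 macrophage and of 6 skeletal muscle markers was called. Lower calls were made for 3 of 6 erythroid markers, 2 of 7 marrow myeloid markers (S100a8 and S100a9), 2 of 5 adipocyte markers (Cfd and Lep) and 1 of 6 B cell markers (Ms4a1).

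Other lists of Wnt genes were read beside the antagonists. Over all genes tested against naïve cartilage, 10.4% were called higher and 6.11% lower, and the counts of these lists carry no test. Among the Wnt ligands, 12 of 19 could be tested, and 4 rose and none fell against naïve cartilage, with a median log2 fold change of 0.45. Wnt16, a ligand of the joint lining and cartilage surface, rose from 1.34 ± 0.501 to 7.91 ± 0.868 CPM (log2 fold change 2.55, SE 0.245, FDR = 1.80e-06). Wnt9a, which takes part in joint formation, rose by 2.22 (SE 0.276, FDR = 2.26e-05) and Wnt5a, which signals mostly without beta-catenin, by 1.04 (SE 0.147, FDR = 7.93e-05).

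Among these other Wnt lists, receptors had the most calls, 11 of 18 higher and none lower, with a median of 0.80. Fzd2 (2.46, SE 0.151, FDR = 2.15e-08), Ror2, a receptor of Wnt5a (2.46, SE 0.243, FDR = 2.41e-06), and Fzd6 (2.01, SE 0.120, FDR = 1.69e-08) changed the most. Lrp6, the co-receptor bound by Dkk1, Dkk2 and sclerostin, rose from 115 ± 10.9 to 215 ± 13.7 CPM (0.92, SE 0.0954, FDR = 3.77e-06). Lrp5 had 70.0 ± 7.63 and 85.1 ± 4.09 CPM, and its change of 0.30 (FDR = 0.0408) was under the 1.5-fold limit. Kremen1, which removes the co-receptors together with Dkk1, rose by 1.59 (SE 0.113, FDR = 9.83e-08).

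Of 10 tested genes that modulate Wnt signalling in other ways, 3 rose and 1 fell, with a median of 0.16. Cthrc1, a secreted protein of injured connective tissue, went from 7.62 ± 3.40 to 195 ± 55.8 CPM (4.69, SE 0.353, FDR = 1.67e-07). Igfbp4, which binds insulin-like growth factors and can inhibit Wnt receptors, rose by 1.42 (SE 0.112, FDR = 2.74e-07) and Tpbg by 1.00 (SE 0.137, FDR = 5.48e-05). Rnf43, a ubiquitin ligase that clears Frizzled receptors, fell by 0.63 (SE 0.180, FDR = 0.0161). Among 10 agonists and secretion genes 5 rose and none fell, with a median of 0.79. Ndp, at 0.222 ± 0.116 CPM in naïve libraries, rose by 2.19 (SE 0.421, FDR = 0.00113), Rspo2, which amplifies Wnt signals, by 1.68 (SE 0.292, FDR = 4.92e-04), and Porcn, which attaches the lipid that Wnt proteins need, by 1.16 (SE 0.201, FDR = 4.81e-04).

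Inside the cell, 1 of 14 genes of the beta-catenin machinery was called, against 10.4% of all genes called higher. It was Tcf7l1 (0.60, SE 0.117, FDR = 0.00120), and the median was 0.22. Of the 7 tested feedback targets of beta-catenin, 3 rose, namely Ccn4 (1.40, SE 0.184, FDR = 3.85e-05), Nkd2 (1.18, SE 0.171, FDR = 9.86e-05) and Nkd1 (0.90, SE 0.237, FDR = 0.00979). Axin2, the target used most often as a readout, had 5.35 ± 1.03 CPM in naïve and 7.07 ± 0.103 CPM in injured libraries, and its log2 fold change of 0.43 (FDR = 0.0712) did not pass. Tcf7 (0.36, FDR = 0.0888), Ccnd1 (0.12, FDR = 0.583) and Lef1 (0.00, FDR = 0.995) did not pass. Against the contralateral knees the counts were 3 of 12 ligands, 10 of 18 receptors, 4 of 10 other modulators, 5 of 10 agonists, 2 of 14 machinery genes and 3 of 7 feedback targets higher, and 1 other modulator lower. Over all genes in that comparison, 9.33% were called higher and 3.23% lower. At day 1 none of these lists had a called gene against naïve or contralateral cartilage.

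**Figure D5:**
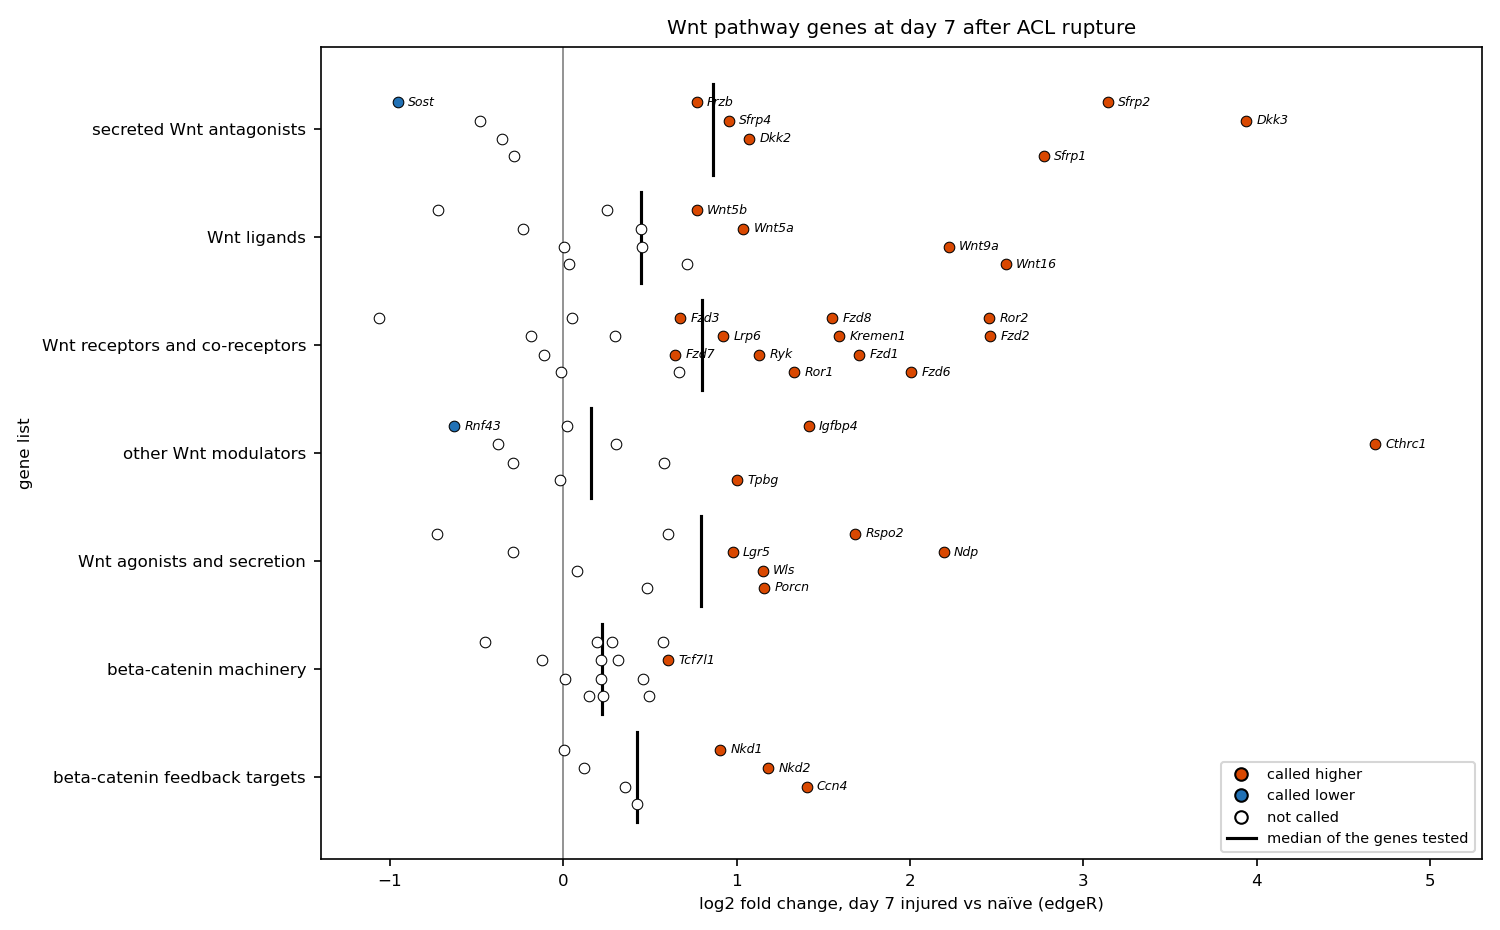
Log2 fold change of day 7 injured against naïve libraries (x axis) for the antagonists and 6 other lists of Wnt pathway genes (y axis); each point is a gene, coloured by its call, and the black line is the median of the list. The antagonists, receptors and agonists have medians of 0.86, 0.80 and 0.79, and the machinery genes cluster near 0.22.

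Genes whose group means followed those of each called member most closely were sought by the root mean square difference of the centred log2 CPM over the 5 groups, among all genes with a mean of at least 1 CPM. Dkk3 was nearest to Thbs2 (0.06), followed by Ptn (0.12) and Angptl1 (0.12). Sfrp2 was nearest to Capn6 (0.07), Piezo2 (0.08) and Col14a1 (0.11), and Sfrp1 to Zim1 (0.06), AW551984 (0.07) and Angptl2 (0.08). Thbs2 had 1198 CPM in day 7 injured and 81.4 CPM in naïve libraries, on average. Sfrp4 and Dkk2 shared Mfge8 (0.05 and 0.04) and BC034090 (0.03 and 0.05) among their nearest genes, with Apod (0.05) as the other for Sfrp4 and Pcdhb16 (0.06) for Dkk2. The nearest to Frzb were Galnt18 (0.02), Pomgnt2 (0.03) and Dll4 (0.04). Sost was nearest to Cdo1 (0.04), which had 28.8 CPM in naïve and 14.1 CPM in day 7 injured libraries on average, and to Lipe and Ephx2 (both 0.08). Likeness over 5 group means is a description, and with most of the pattern set by 1 group many genes could resemble a member.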

How the data were processed

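Total RNA without ribosomal RNA was sequenced from 18 pooled cartilage libraries. The authors quality trimmed the reads with Trimmomatic, ran kallisto against GRCm38 transcripts and deposited estimated counts, effective lengths and TPM for each transcript. The study then used Tximport, edgeR and limma-voom. It left out 1 unnamed ACL library of low mapping rate. Its principal component plot shows fewer day 7 contralateral points than there are such libraries. All 18 deposited libraries were used here, so results with day 7 contralateral libraries may include the removed library.

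Of 137436 transcripts, 135107 (98.3%) matched the GENCODE annotation of GRCm38 by identifier without its version. The rest held 0.667% to 3.90% of the counts of a library and were left out. Gene sums were taken for 49184 genes and rounded. TPM values, as deposited by the authors, were summed per gene for levels between genes, and effective lengths were used in 1 alternative. Depth ranged from 16074762 to 41794005 estimated counts; intervals cover the spread between libraries.

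edgeR 4.0.16 in R 4.3.3 gave the quasi-likelihood test, after TMM normalisation and its filter on low counts, with 1 mean per group, Benjamini-Hochberg adjustment over all genes tested, with calls at an FDR no higher than 0.05 and a change of 1.5-fold or more. Because the library removed by the study may be day 7 contralateral, comparisons without that group used the 15 others (21129 genes). Comparisons with that group used all 18 (21262 genes). Pairing of knees, which the study modelled, could not be repeated. The fits took libraries as independent although naïve libraries shared mice. Intervals against naïve may therefore be too narrow and FDRs too low. Each SE was derived as the absolute log2 fold change over the square root of the F statistic. Intervals came from that SE and the t distribution. Group labels came from GEO, and replicate numbers follow library order. Alternatives were DESeq2 1.42.0 (Wald test and size factors), limma-voom (limma 3.58.1), no filter, other thresholds, other sets of libraries, a transcript length offset and each library left out. The testing step was run on simulated counts drawn independently for each library, which cannot show the effect of mice shared between libraries.

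All 10 members are named. Of the pathway lists, counts were given in each comparison, with the 3 called genes of largest change and every tested feedback target. The 7 called members were each matched to the 3 nearest genes. Lrp5, Lrp6, Kremen1 and the single marker genes were named after their values were seen. The members and lists were chosen with earlier results of these data known. Upstream sequences came from a RefSeq table that held 7 of the 10 members.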

Additional observations from a re-analysis of the deposited data

Results flagged for a closer look

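The injury effect (injured minus contralateral) differed between day 7 and day 1, by the test of that difference, for Dkk3 (3.52 on the log2 scale, FDR = 5.97e-05), Sfrp2 (3.19, FDR = 5.15e-04), Sfrp1 (3.03, FDR = 0.00232) and Sost (-1.85, FDR = 0.0386), all in edgeR. The Sost call was lost under 12 of 21 alternatives, among them limma-voom, only the groups compared and the length offset, and was -1.23 without day 7 contralateral library 1 (FDR = 0.0775).

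Of the 10 members, each looked at over the 6 naïve libraries, 2 had a single library far from the others. For Sfrp1 it was naïve library 5, at 12.2 CPM, whose gap to the next library was 0.801 of the whole range. For Dkk2 it was naïve library 4, at 6.58 CPM, with a gap of 0.671. Chance alone marks about 1 in 20 such groups.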

How the results depend on the processing

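No called value changed sign under any alternative that was run. Over these, Dkk3, Sfrp2 and Sfrp1 stayed called against naïve, contralateral and day 1 injured libraries and in the difference between the injury effects, and Sfrp4 in the first 3. Sost stayed called against naïve (-1.05 to -0.80) and day 1 injured libraries. The number of members called higher stayed within 1.5 times that reported. The number called lower, 1 in each comparison with day 7 injured libraries, became 0 against contralateral libraries with only the groups compared, and 1 to 2 from day 1 to day 7 on leaving out single libraries. In the difference between injury effects it was 0 at an FDR of 0.01, with limma-voom, with only the groups compared and with the transcript length offset, 2 (Sost and Wif1) with DESeq2, and 0 to 2 on leaving out single libraries. Dkk2 was also lost against contralateral libraries with the length offset (FDR = 0.0515 in edgeR), and Frzb and Dkk2 at an FDR of 0.01. The causes were not tested. No paired analysis was possible because the labels do not tie libraries to mice.

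Counts over all genes moved too. Against naïve, 2207 higher and 1291 lower became 3960 and 2331 without the fold limit, and the lower count was 472 at an FDR of 0.01 and 797 without day 7 injured library 3. Against contralateral libraries, the 686 lower became 1310 without the fold limit, 251 at an FDR of 0.01, 452 with limma-voom, 279 with only the groups compared, and 279 (without day 7 injured library 3) to 1058 (without contralateral library 3) on leaving out single libraries. From day 1 to day 7, 1910 higher became 3427 without the fold limit, and 1347 lower became 382 at an FDR of 0.01 and 849 to 1173 on leaving out single libraries. In the difference, 750 higher became 341 at an FDR of 0.01 and 393 to 892 on leaving out single libraries, and 52 lower became 3 at an FDR of 0.01, 25 without the filter, 160 with DESeq2, 21 with only the groups compared, 27 with the length offset, and 9 to 91 on leaving out single libraries. Sfrp5 and Dkk2, the members with the fewest counts, had wide intervals.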
